A study of Mus musculus with 6 samples.

Results

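The Robo receptors, their Slit ligands, netrin-1 and the netrin receptors Dcc, Unc5c and Unc5d guide growing axons and migrating neurons. The 10 genes described here are Robo1, Robo2, Robo3, Slit1, Slit2, Slit3, Ntn1, Dcc, Unc5c and Unc5d, found by symbol among the 29659 genes of an RNA-seq table of mouse lateral ganglionic eminence (LGE), the embryonic tissue that gives rise to striatal projection neurons. They were picked in part because Robo3, Ntn1 and Slit1 were higher after conditional deletion of Zfhx3, so their differences between the groups are given as a description and not as a test. Embryos were C57BL/6 at embryonic day 16.5. Zfhx3-CKO embryos were Dlx5/6-Cre; Zfhx3F/F (3 libraries), with Cre driven in the ganglionic eminences, and control embryos were Dlx5/6-Cre alone (3 libraries), so that both groups carry the Cre transgene. Cells that never express the transgene keep Zfhx3. No label says whether the replicates came from separate animals, so a p-value here is set against the variation among the sequenced libraries, part or all of which could be technical.

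Slits are secreted proteins that repel axons carrying Robo1 or Robo2. Robo3 works differently in mammals: it binds Slits poorly, is best known from commissural axons on their way across the midline, and responds to the secreted protein Nell2. Netrin-1 attracts axons through Dcc and repels them through Unc5 receptors, and in the ventral forebrain Slits and netrin-1 help shape the paths that cortical and thalamic axons take through the developing striatum.

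The Zfhx3-CKO libraries held 18960574 to 20311799 counts and the control libraries 15938590 to 16753355. Zfhx3 averaged 95.2 ± 6.77 CPM (counts scaled to library size) in Zfhx3-CKO and 123.2 ± 19.3 CPM in control (SD over 3 libraries). The log2 difference was -0.37 (SE 0.12), which did not pass edgeR's quasi-likelihood test (adjusted p = 0.091), with every Zfhx3-CKO library lower than every control library. It was called lower without control library 3 (-0.50), with GC and length trends removed (-0.55, adjusted p = 0.00595), without a low-count filter (-0.36) and by DESeq2 (-0.37), and the adjusted p ranged from 0.00595 to 0.289 over the alternatives. A whole-gene count is only a limited check of a partial deletion. Xist was at 2874 to 3057 CPM in the Zfhx3-CKO libraries and 0.299 to 0.568 CPM in the control libraries, so sex and genotype cannot be told apart. This holds for the 10 guidance genes too, all of them autosomal. Summed markers of LGE and striatal cells (12 genes) came to 4023 to 4221 CPM in Zfhx3-CKO and 4750 to 5205 CPM in control, and none was at 0. The sum hides unlike genes. By edgeR, 5 of the 12 were called lower, 0 higher and 7 neither. Those lower were Ebf1 (log2 fold change -2.89), Isl1 (-1.26), Foxp1 (-1.17), Bcl11b (-0.50) and Gad2 (-0.35). Those of the medial ganglionic eminence (6 genes) came to 332.4 to 487.4 CPM in Zfhx3-CKO and 261.8 to 293.5 CPM in control. Markers of cortical excitatory cells (11 genes, 0 of them at 0 in all libraries) summed to 192.1, 50.6 and 279.2 CPM in Zfhx3-CKO libraries 1, 2 and 3, and 49.7 to 53.6 CPM in control. Markers of thalamus and habenula (7 genes, 3 of them averaging at least 1 CPM) were also lowest in library 2, with 41.0, 19.3 and 35.1 CPM in Zfhx3-CKO libraries 1, 2 and 3 and 17.2 to 20.6 CPM in control. Summed ranges overlapped between the groups for progenitors (2595 to 3506 CPM in Zfhx3-CKO, 2455 to 2830 in control), Cajal-Retzius cells (41.9 to 102.6 and 57.2 to 101.3), choroid plexus (10.2 to 15.2 and 7.88 to 13.9), vessels (287.4 to 364.1 and 278.5 to 290.5), microglia (188.4 to 298.9 and 266.3 to 386.9) and glia (375.2 to 463.2 and 386.7 to 448.4). Of the 4 Cajal-Retzius genes only 1 (Reln) averaged at least 1 CPM, and of the 5 choroid plexus genes 2 (Otx2 and Clic6). By edgeR, 1 of 8 progenitor genes was called higher (Mki67, log2 fold change 0.61) and 0 lower. Of the 10 tested cortical genes, whose summed ranges also overlapped, 1 was called higher (Bhlhe22, 2.92) and 0 lower. The thalamus and habenula ranges overlapped too, with 0 of 4 tested genes called. Called lower were 1 of 6 microglia genes (P2ry12, -1.80) and 1 of 5 glia genes (Gfap, -2.47), with 0 higher. Among all genes tested 3.87% were called higher and 3.49% lower. In bulk tissue, more or fewer cells of a type and more or less RNA per cell cannot be told apart.

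A pair of the ligand genes each carry a copy of the same microRNA in an intron, and its seed match occurs in several of the receptor genes. The sequences are shown because Slit2 and Slit3 host the microRNA and Robo1, Robo2 and Robo3 hold letters that pair with its seed. Mir218-1 lies on the plus strand within Slit2 (chr5:48223942-48224051) and Mir218-2 on the plus strand within Slit3 (chr11:35616816-35616925), both in RefSeq on GRCm38.p6, and neither overlaps a host exon. Both give the same 5p strand, while the 3p strands differ. Capitals mark the seed, bases 2 to 8 of each mature RNA, written 5′ to 3′.
mmu-miR-218-5p: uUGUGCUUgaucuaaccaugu
mmu-miR-218-1-3p: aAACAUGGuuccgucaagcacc
mmu-miR-218-2-3p: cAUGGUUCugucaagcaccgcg
The hairpins of both loci follow, with the 5p strand in capitals.
Mir218-1: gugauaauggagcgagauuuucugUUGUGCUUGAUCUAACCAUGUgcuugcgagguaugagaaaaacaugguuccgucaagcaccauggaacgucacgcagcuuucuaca
Mir218-2: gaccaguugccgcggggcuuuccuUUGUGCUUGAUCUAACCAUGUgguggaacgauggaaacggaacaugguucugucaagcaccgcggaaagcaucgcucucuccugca

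The letters that pair with the 5p seed, AAGCACA, were searched on the sense strand of the longest 3′ UTR of each gene in GENCODE vM21. They occurred in 4 of the 10 guidance genes and in 14.8% of 21169 coding genes. The share grows with UTR length. Among genes with a UTR under 1000 bases it was 3.95%, and 1 of 2 members held a match (Robo3). For UTRs of 1000 to 3000 bases it was 17.8%, and 1 of 2 members held one (Robo1). Over 3000 bases it was 41.6%, and 2 of 6 members held one (Robo2 and Slit2), so nothing particular to the guidance genes is read from these matches. Robo1 held 1 match (at base 986 of a 1733-base UTR), Robo2 held 2 (the first at base 461 of 3987), Robo3 held 1 (at base 647 of 736) and Slit2 held 2 (the first at base 302 of 3492). The first match of each gene is printed with its flanks, the match in capitals.
Robo1: ttttggttttaaAAGCACAatcactaaact
Robo2: ttatttggtgatAAGCACAaatctctactc
Robo3: tgtgactcactgAAGCACActgtctacaac
Slit2: caatactagcagAAGCACAtctacaagagc
A match is a string of letters and not a shown target site. Mature microRNAs were not measured here, and the table lists Mir218-2 with 1 count over all 6 libraries.

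The promoters of the members with the largest fold differences, Robo3 and Slit3, are shown for their contrast in base composition. Each runs from 250 bases before to 50 bases after the gene start in RefSeq on GRCm38.p6, the strand being minus for Robo3 (chr9:37433126-37433425) and plus for Slit3 (chr11:35121206-35121505). Capitals mark TAATTA, a core motif of many homeodomain proteins, which reads the same on both strands.
Robo3: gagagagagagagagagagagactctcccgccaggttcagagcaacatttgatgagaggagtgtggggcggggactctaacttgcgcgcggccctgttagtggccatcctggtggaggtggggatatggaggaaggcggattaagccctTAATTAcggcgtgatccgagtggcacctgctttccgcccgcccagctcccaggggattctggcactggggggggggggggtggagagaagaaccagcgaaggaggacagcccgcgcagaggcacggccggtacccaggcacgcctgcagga
Slit3: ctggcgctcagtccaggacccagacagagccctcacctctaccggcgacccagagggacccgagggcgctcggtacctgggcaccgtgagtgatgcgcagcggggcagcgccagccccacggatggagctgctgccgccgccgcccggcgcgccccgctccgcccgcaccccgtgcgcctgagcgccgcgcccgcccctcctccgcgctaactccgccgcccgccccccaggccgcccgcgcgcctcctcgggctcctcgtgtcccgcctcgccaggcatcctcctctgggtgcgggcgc
Robo3 held 1 TAATTA, as did 5.29% of the 32851 promoters of this length, and 63.3% of its bases were G or C. Slit3 held none, with a GC share of 78.3% that only 1.76% of promoters reach. Of the 10 members, 6 had a promoter in the RefSeq table, and no other of those 6 held TAATTA.

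Levels can be compared between genes only per length, and for that the deposited FPKM values (fragments scaled by gene length and sequencing depth) were used. In the Zfhx3-CKO libraries Slit1 averaged 35.1 ± 1.01 FPKM, Robo1 32.7 ± 8.84, Ntn1 29.2 ± 3.25, Robo2 11.7 ± 4.82 and Dcc 8.86 ± 0.967. Lower stood Unc5d at 4.69 ± 1.17, Slit3 at 2.71 ± 0.189, Robo3 at 1.93 ± 0.668, Slit2 at 0.817 ± 0.0784 and Unc5c at 0.303 ± 0.121 FPKM (SD, n = 3). Library ranges overlapped between the neighbours Slit1 and Robo1, Robo1 and Ntn1, Robo2 and Dcc, and Slit3 and Robo3. In the control libraries the order ran Robo1 (31.4 ± 3.73), Slit1 (25.7 ± 1.76), Ntn1 (17.7 ± 1.72), Robo2 (17 ± 2.44), Dcc (6.11 ± 1.71), Unc5d (2.48 ± 0.332), Slit3 (1.07 ± 0.122), Slit2 (0.680 ± 0.0418), Robo3 (0.385 ± 0.0643) and Unc5c (0.201 ± 0.0383 FPKM). There Ntn1 and Robo2 overlapped and the other neighbours did not. On this scale Slit1 was the most abundant Slit and Robo1 the most abundant Robo in both groups. The gene length matters for this order: the deposited FPKM implies 16516 bases for Robo2, 25433 for Slit2 and 19135 for Unc5c, while their longest transcripts in GENCODE have 8591, 9960 and 9646. With CPM per kilobase of the longest transcript, 4 of the 10 genes kept their control rank, and Robo2 (32.7) then stood above Robo1 (31.4) in control.

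**Figure D1:**
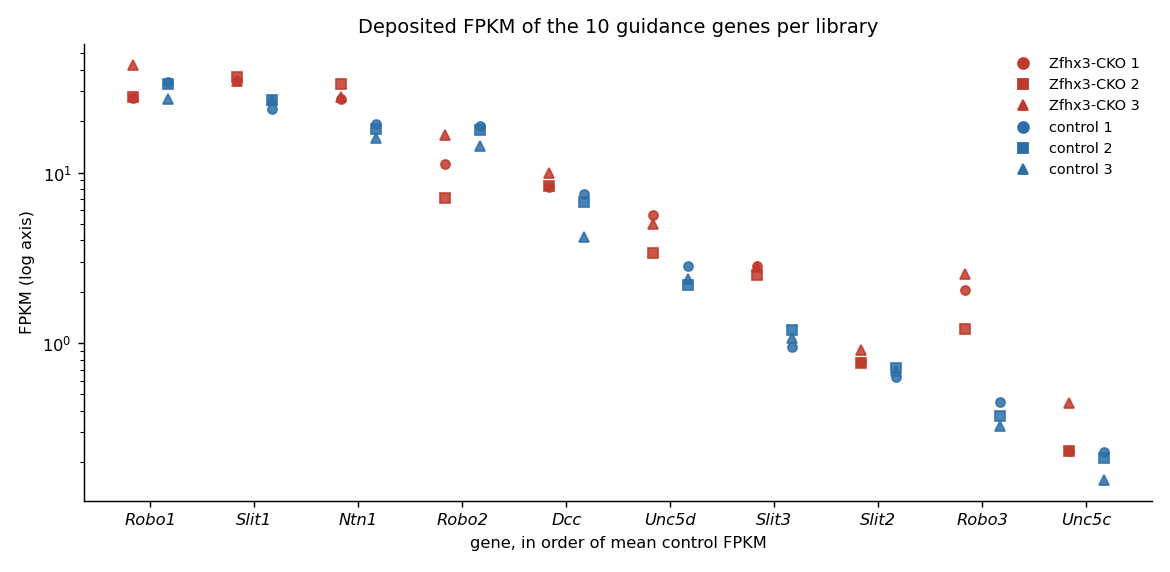
Deposited FPKM of the 10 guidance genes on a log axis, 1 point per library, Zfhx3-CKO beside control, with marker shapes for library numbers. Levels span Robo1 and Slit1 near the top to Unc5c at 0.201 ± 0.0383 FPKM in control.

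All 10 genes passed the low-count filter. By edgeR's quasi-likelihood test with Benjamini-Hochberg adjustment over the 16551 genes tested, 5 were called higher in Zfhx3-CKO (Robo3, Slit3, Unc5d, Ntn1 and Slit1) and 0 lower. Among all genes tested 3.87% were called higher and 3.49% lower. At an unadjusted p under 0.05 the members counted 7 higher (13.5% of all genes tested) and 0 lower (12.1%), and DESeq2 called 6 higher (6.13% of genes tested), Dcc being the added one, and 0 lower (4.79%). Since these genes were picked from this comparison, nothing is read from the counts. The library ranges did not overlap, with Zfhx3-CKO higher, for 7 members (15.5% of all genes tested), and overlapped for Robo1, Robo2 and Unc5c. The median log2 fold change was 0.57 over the 10 members and 0.0011 over all genes tested.

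**Figure D2:**
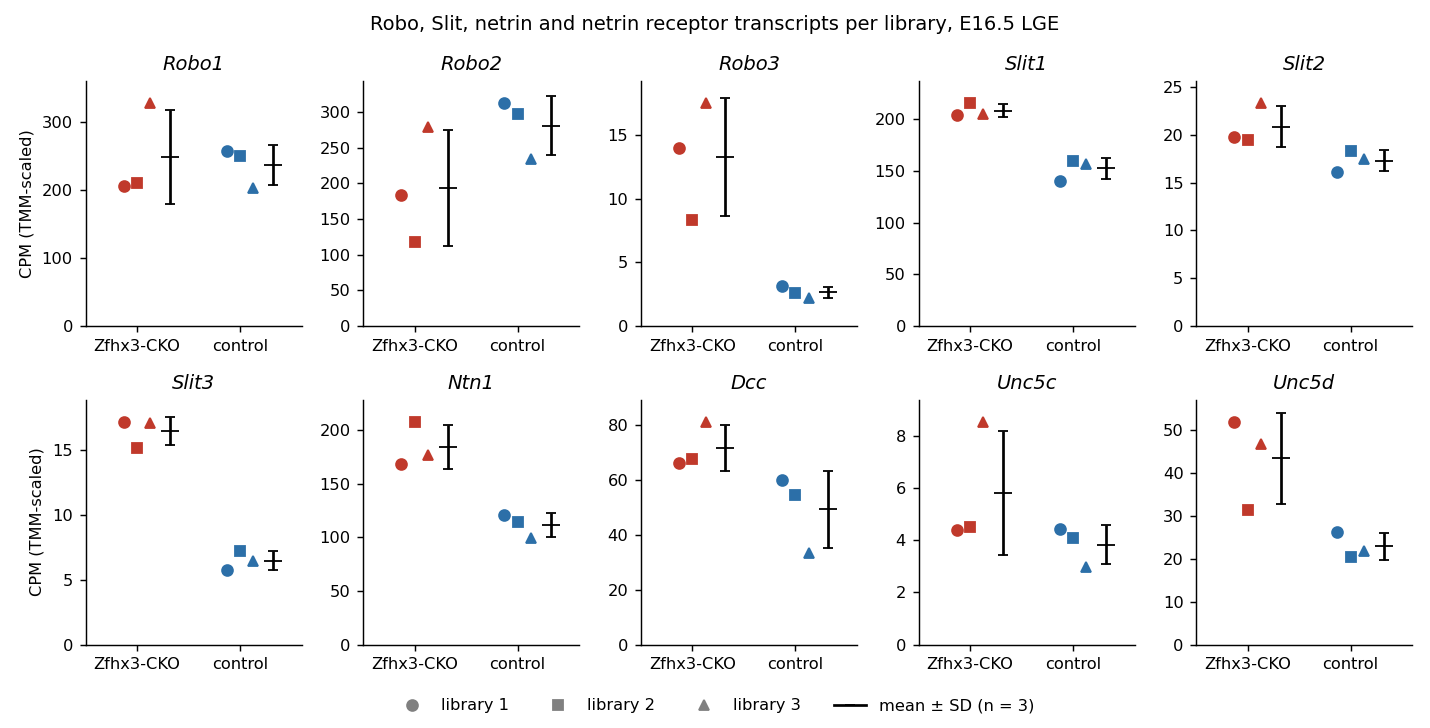
CPM of each guidance gene, 1 panel per gene with its own axis, 1 point per library with the group mean and SD (n = 3), Zfhx3-CKO left of control. Robo3, Slit1, Slit2, Slit3, Ntn1, Dcc and Unc5d have no control library above any Zfhx3-CKO library.

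Among the ligands, Slit3 showed the widest separation. Slit3 (chr11:35121224-35708507, plus strand) had 17.2, 15.2 and 17.1 CPM in the Zfhx3-CKO libraries, against 5.74, 7.25 and 6.47 CPM in the control libraries. Every Zfhx3-CKO library stood above every control library, and the Zfhx3-CKO libraries lay close together. Its log2 fold change was 1.35 (SE 0.14), a 2.54-fold difference, and ranged from 1.27 to 1.44 when each library was left out in turn, Slit3 being called each time. It was 0.84, and called, on the log2(FPKM + 1) scale, where the added 1 compresses low values. Slit3 passed the filter of that fit only with its Zfhx3-CKO libraries. It contributed 7.03% ± 0.618 of the summed Slit FPKM in Zfhx3-CKO and 3.89% ± 0.221 in control (SD, n = 3 each).

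Slit1, a Slit made largely in the nervous system, had 204.2, 215.2 and 205.1 CPM in Zfhx3-CKO, against 140.4, 159.6 and 156.7 CPM in control (chr19:41600257-41743665, minus strand). The groups did not overlap, and the Zfhx3-CKO libraries differed little among themselves. The log2 fold change was 0.45 (SE 0.07). With trends of GC content and length removed it was 0.29 and Slit1 was no longer called. Slit2, the ligand that binds Robo1 and Robo2 in many tissues, had 19.8, 19.5 and 23.3 CPM in Zfhx3-CKO, against 16.1, 18.3 and 17.4 CPM in control (chr5:47983138-48307733, plus strand). Its groups stood apart by a narrow gap, with a log2 fold change of 0.27 (SE 0.12) that was not called. The summed Slit FPKM was 38.6 ± 0.775 in Zfhx3-CKO and 27.5 ± 1.92 in control, most of it Slit1.

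Netrin-1, encoded by Ntn1 (chr11:68209364-68400823, minus strand), had 168.2, 207.7 and 176.4 CPM in Zfhx3-CKO, against 121.1, 114.0 and 99.0 CPM in control. All Zfhx3-CKO libraries were higher, library 2 the highest. The log2 fold change was 0.72 (SE 0.10), a 1.65-fold difference.

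Among the receptors, Robo3 had the largest fold and a low level. Robo3 (chr9:37415669-37433246, minus strand) had 285, 157 and 341 counts in the Zfhx3-CKO libraries, against 52, 41 and 37 in the control libraries. In CPM these were 14.0, 8.31 and 17.5 in Zfhx3-CKO, against 3.11, 2.59 and 2.21 in control. The groups were far apart, but library 2 stood well below the other Zfhx3-CKO libraries. The log2 fold change was 2.33 (SE 0.29), a 5.02-fold difference. It was 1.05 (called) on the log2(FPKM + 1) scale, a fit whose filter Robo3 passed only through its Zfhx3-CKO libraries. Without Zfhx3-CKO libraries 1 and 3, the libraries with high cortical markers, it was 1.65, a value from 1 Zfhx3-CKO library with no spread of its own. Of the summed Robo FPKM, Robo3 made up 4.15% ± 0.848 in Zfhx3-CKO and 0.788% ± 0.0582 in control (SD, n = 3 each).

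Robo2, a main Slit receptor of forebrain axons, was the member with a log2 fold change below 0. It had 184.2, 118.0 and 278.6 CPM in the Zfhx3-CKO libraries, against 312.3, 297.1 and 233.7 CPM in the control libraries (chr16:73892306-74411825, minus strand). Library 2 was lowest, library 1 was also below every control library, and library 3 lay within the control range, so the groups overlapped. The log2 fold change was -0.54 (SE 0.26) and not called. Without Zfhx3-CKO library 2 it was -0.28, also not called. Without Zfhx3-CKO library 3 it was -0.89 and called lower, a call made for 6.06% of genes tested in that fit. From library 2 alone, the Zfhx3-CKO library whose cortical markers matched control, it was -1.25 and also called lower (4.93% of genes tested). The order of Robo2 among the Zfhx3-CKO libraries was that of the summed cortical markers and of the summed Cajal-Retzius markers. The part of either set in the Robo2 values was not tested.

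Robo1, which shares Slit ligands with Robo2, had 206.4, 211.1 and 327.6 CPM in Zfhx3-CKO, against 257.7, 250.6 and 203.6 CPM in control (chr16:72663149-73046095, plus strand). Library 3 was above all others and the remaining libraries were mixed. The log2 fold change was 0.07 (SE 0.18) and took the other sign, -0.18, without Zfhx3-CKO library 3. The summed Robo FPKM was 46.3 ± 13.9 in Zfhx3-CKO and 48.8 ± 6.23 in control.

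Dcc, the receptor for attraction to netrin-1, had 66.3, 67.7 and 81.3 CPM in Zfhx3-CKO, against 60.1, 54.4 and 33.5 CPM in control (chr18:71258738-72351069, minus strand). Every Zfhx3-CKO library was higher, and control library 3 stood well below the other controls. The log2 fold change of 0.54 (SE 0.19) was not called, and was 0.32 without control library 3.

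Unc5d, a receptor for repulsion that in the developing mouse cortex marks cells of the subventricular zone, had 51.9, 31.4 and 46.8 CPM in Zfhx3-CKO, against 26.3, 20.4 and 21.9 CPM in control (chr8:28646717-29219636, minus strand). The groups did not overlap, with library 2 again the lowest Zfhx3-CKO library. Its log2 fold change was 0.92 (SE 0.19), a 1.90-fold difference. The call was lost without Zfhx3-CKO library 1 (0.78) or without any 1 of the control libraries (0.86 to 1.04). From Zfhx3-CKO library 2 alone the value was 0.46. Unc5c had 4.41, 4.50 and 8.56 CPM in Zfhx3-CKO, against 4.42, 4.10 and 2.99 CPM in control (chr3:141465216-141834924, plus strand). Library 3 stood clear of the controls while libraries 1 and 2 lay beside the highest of them, and the log2 fold change of 0.60 (SE 0.30) was not called and was 0.22 without Zfhx3-CKO library 3. Unc5c shares 118 exon bases with the opposite-strand gene Gm15688, which the library kit cannot tell apart and which had 6 counts over all libraries.

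**Figure D3:**
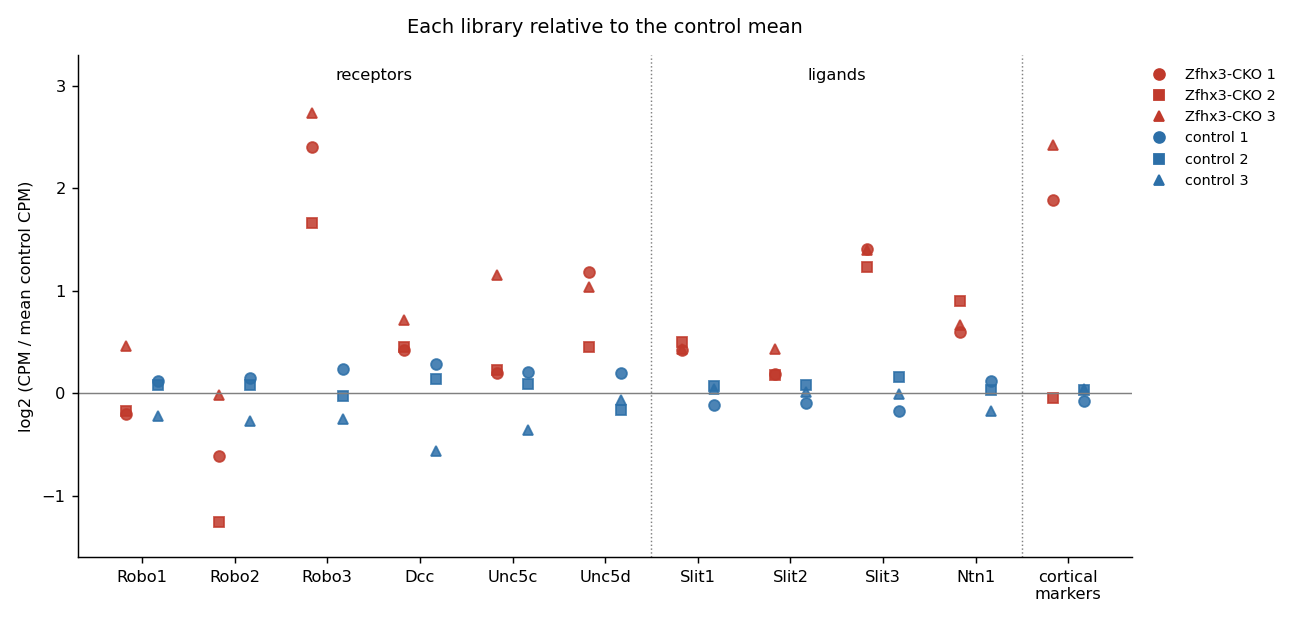
Each library relative to the control mean (log2 of the CPM ratio) for the 6 receptors, the 4 ligands and the summed cortical markers, Zfhx3-CKO left of control and marker shapes for library numbers. Receptors such as Robo2 and Robo3 spread widely among the Zfhx3-CKO libraries, as the cortical markers do, and the ligands lie close together.

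The receptors spread more widely than the ligands among the Zfhx3-CKO libraries, Dcc only barely. The coefficient of variation of the 6 receptors was 11.5% to 41.7% in Zfhx3-CKO and 12.4% to 28.4% in control. For the 4 ligands it was 2.95% to 11.3% in Zfhx3-CKO and 6.28% to 11.7% in control. Of the receptors, 5 of 6 were highest in Zfhx3-CKO library 3, and of the ligands 1 of 4. The CPM in library 3 over that in library 2 was 2.36 for Robo2, a ratio that 3.31% of genes tested reach, 2.10 for Robo3 (4.65%) and 1.90 for Unc5c (6.33%). Among the other receptors it was 1.55 for Robo1 (11.1%), 1.49 for Unc5d (12.6%) and 1.20 for Dcc (24.25%). Among the ligands it was 1.19 for Slit2 (24.8%), 1.12 for Slit3 (31.3%), 0.953 for Slit1 (56.9%) and 0.849 for Ntn1 (76.4%). Over all genes with enough counts, Zfhx3-CKO libraries 2 and 3 also lay further apart than the control pairs. The Pearson chi-square per gene was 28.8 for the former and 3.28 to 9.37 for the latter. It was 12.5 for Zfhx3-CKO libraries 1 and 2 and 14.8 for 1 and 3. Pairs of a Zfhx3-CKO and a control library ran from 26.5 to 36.6, a range that holds the 28.8. In Zfhx3-CKO the coefficient of variation of Dcc (11.5%) stood beside that of Ntn1 (11.3%). In control that of Dcc was 28.4%, the highest of all members. The cortical markers moved in the same order as Robo2 and Robo3 among these libraries. So did the Cajal-Retzius sum, mostly Reln (66.7, 41.9 and 102.6 CPM in Zfhx3-CKO libraries 1, 2 and 3). Robo1, Dcc, Unc5c and Unc5d had other orders. Robo3, Unc5d and Dcc were above every control library in library 2 as well, where the cortical markers were at 50.6 CPM and the control libraries at 49.7 to 53.6 CPM. Markers of the medial ganglionic eminence were at 438.5 CPM in library 2 and 261.8 to 293.5 CPM in control. The part of these marker sets in the receptor values and their spread was not tested.

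**Figure D4:**
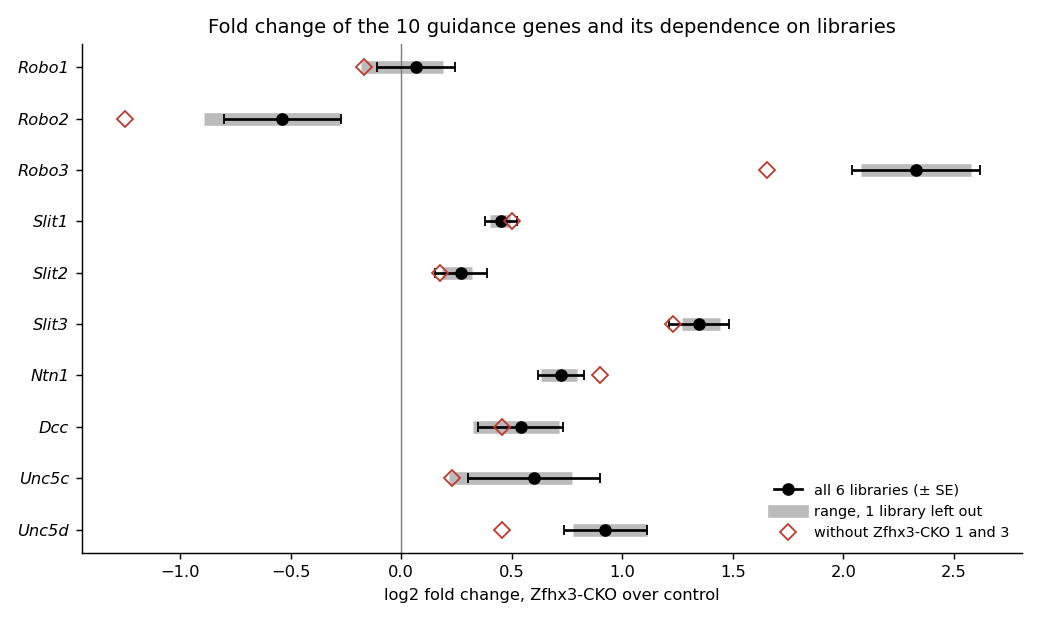
Log2 fold change of each member, Zfhx3-CKO over control, as black points with SE bars for all 6 libraries, grey bands for the range with 1 library left out, and open diamonds without Zfhx3-CKO libraries 1 and 3. Slit3 lies between 1.27 and 1.44 when single libraries are left out, while the band of Robo2 runs between -0.89 and -0.28 and its diamond stands at -1.25.

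Other genes of the same pathways were read from lists of binding partners, coreceptors and intracellular effectors. Of 50 genes, 47 were tested, 0 were called higher and 2 lower (Srgap2 and Cdc42), where 7.36% of all genes tested were called in either direction. At an unadjusted p under 0.05, 13 of the 47 were higher and 4 lower, where 13.5% and 12.1% of all genes tested were. DESeq2 called 4 higher and 2 lower, against 6.13% and 4.79% of all genes tested. Srgap2, whose product binds Robo1, averaged 267.3 ± 28.2 CPM in Zfhx3-CKO and 362.5 ± 20.5 CPM in control (SD, n = 3 each). It fell by 0.44 on the log2 scale (SE 0.09, edgeR adjusted p = 0.0243), a call lost without Zfhx3-CKO library 1, control library 1 or control library 2 (adjusted p up to 0.126). Cdc42, the GTPase that drives filopodia, averaged 323.4 ± 10.6 CPM in Zfhx3-CKO and 391.6 ± 15.9 CPM in control, and fell by 0.28 (SE 0.06, edgeR adjusted p = 0.037), a call that held only when Zfhx3-CKO library 3 was the one left out (adjusted p up to 0.149 without another library) and that was lost with GC and length trends removed (-0.16).

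Among the Robo and Slit partners, 12 of 13 genes were tested, with 1 lower (Srgap2) and a median log2 fold change of 0.08. The heparan sulphate proteoglycan gene Gpc1 (log2 fold change 0.26, edgeR adjusted p = 0.0664) and the Robo3 ligand gene Nell2 (0.21, edgeR adjusted p = 0.0994) did not pass. Of the netrin, Dcc and Unc5 partners, 17 of 19 were tested and 0 called, with 6 higher (13.5% of all genes tested) and 1 lower (12.1%) at an unadjusted p under 0.05 and 3 called higher by DESeq2 (6.13% of all genes tested). The smallest p-values there were those of Ntng2 (log2 fold change 0.72, edgeR adjusted p = 0.0527), a membrane-anchored netrin, Ntn4 (0.47, adjusted p = 0.0743), a netrin of basement membranes, and Unc5a (0.87, adjusted p = 0.0801), a further receptor of the Unc5 family. Of the 18 effectors, 1 was lower (Cdc42). The kinase gene Fyn (0.23, edgeR adjusted p = 0.104) and the GTPase gene Rac1 (0.22, adjusted p = 0.105) did not pass. A value that misses the threshold does not show that a gene was the same in both groups.

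**Figure D5:**
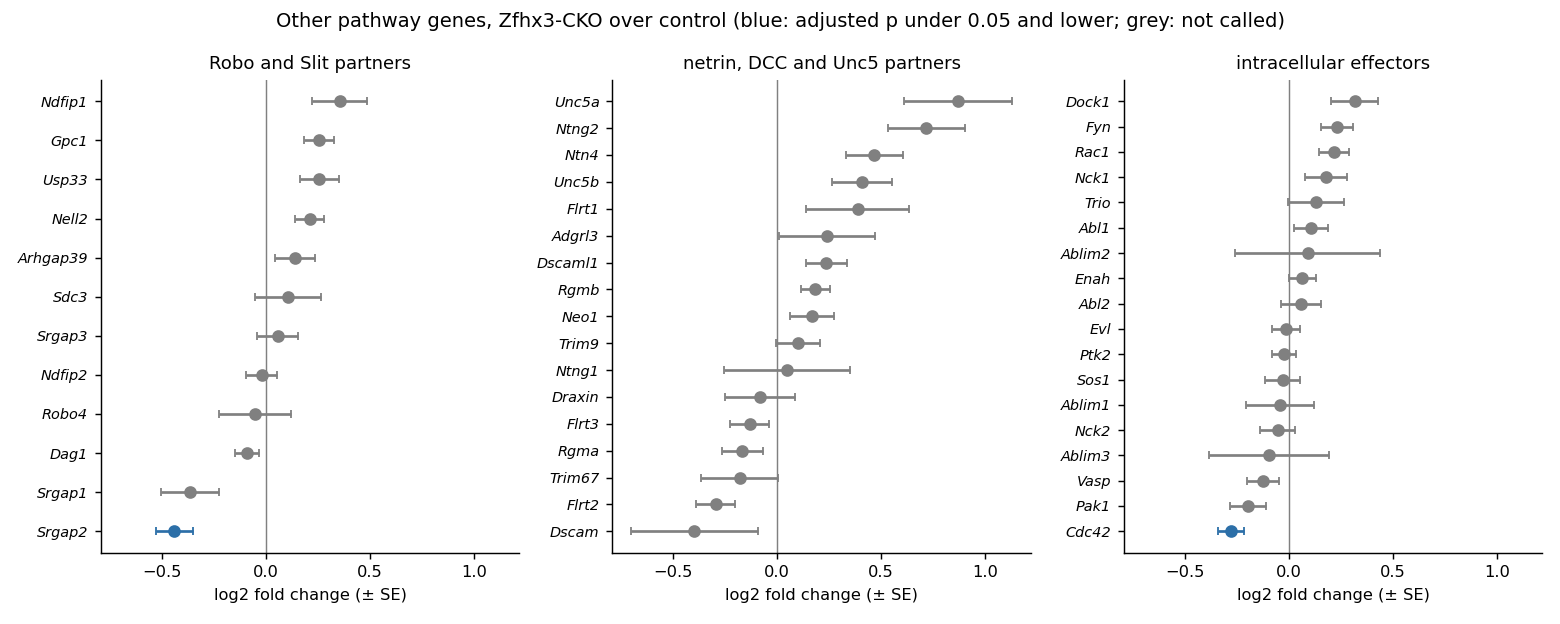
Log2 fold change, Zfhx3-CKO over control, of the 47 tested genes of the 3 pathway lists, 1 panel per list, with SE bars; blue points were called lower and grey points not called. Srgap2 and Cdc42 are the called genes of the lists, at -0.44 and -0.28.

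The guidance genes are long. Their median span is 376.3 kb, against 20.0 kb for all genes tested, and 7 of 10 reach 300 kb while Robo3, at 17.6 kb, does not. Of the 517 tested genes of at least 300 kb, 10.4% were called, with a median log2 fold change of 0.04. Among genes under 100 kb, 7.17% were called.

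The genes whose profile over the 6 libraries was closest were found for the members that chose the group, by the root mean square distance of log2 CPM after removing each gene's mean. For Slit1 they were Mrc2 (0.0297), Actr5 (0.0334), Sema5b (0.0382) and Trip10 (0.0383). For Ntn1 they were Snx29 (0.0518), Tagap1 (0.0728), Col12a1 (0.0794) and Ttc7 (0.085). For Robo3 the distances were larger, with Rpl21-ps15 at 0.235, Rpl21 at 0.247, Rpl35a at 0.275 and 5730409E04Rik at 0.313, and reads of Rpl21 and its pseudogene cannot be assigned with certainty. Sema5b encodes a semaphorin, another family of guidance proteins.

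The mark of significance in the authors' deposited table is carried by 122 genes, 0.411% of all, and Robo3 (authors' log2 fold change 1.62) and Slit3 (1.17) are among them. All genes so marked in the authors' deposited table have a log2 fold change of at least 1.00 in size. At an adjusted p under 0.05 the authors' deposited table holds 1729 of 29659 genes and 6 of 10 members, adding Ntn1 (0.68), Slit1 (0.44), Unc5d (0.79) and Dcc (0.47). The authors' values come from the same libraries from which members were picked, so nothing is read from these counts.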

How the data were processed

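RNA-seq of LGE was analysed from the processed table of 29659 genes. Libraries were made with an unstranded TruSeq kit from 1 ug of total RNA, per the labels' protocols. Per the submitters' processing notes, the tools included HISAT2, StringTie, edgeR and bcl2fastq 2.17.1.14 and the builds GRCm38.p4 and mm10, with no roles given. The deposited counts are raw whole numbers per gene, and the deposited FPKM values were scaled by the authors for length and depth, per the file headers. The authors' log2 fold changes and p-values were copied only where named as the authors'. Gene coordinates were taken from the deposited table.

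The groups were Zfhx3-CKO and control, with 3 libraries each. Counts were fitted over all genes with edgeR 4.0.16 and limma 3.58.1 in R 4.3.3 (quasi-likelihood, TMM, filterByExpr at a minimum count of 10, no covariate, Benjamini-Hochberg threshold 0.05). This kept 16551 genes and left out 13108. The code was tested on simulated data. CPM uses TMM factors, and SD is over libraries. Members and lists were chosen with earlier results of these data known. Named were all members, Zfhx3, the called genes and the 3 smallest p-values of each pathway list, and the 4 nearest profiles of Robo3, Ntn1 and Slit1. Marker lists are described by their sums, with the called genes named. Alternatives were a replicate block, DESeq2 1.42.0, RLE factors, library totals, other filters, GC and length trends removed (GENCODE vM21), limma-trend on log2(FPKM + 1) and left-out libraries.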

Additional observations from a re-analysis of the deposited data

How the results depend on the processing

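Libraries with the same replicate number did not deviate together (same-number correlations of -0.03, -0.08 and -0.25). With a replicate block, Slit1 kept its log2 fold change (0.45) but not its call. In that fit 176 genes were higher (1.06% of genes tested) and 136 lower (0.822%), and 0 other pathway genes were lower. Without a low-count filter 1075 genes were higher (3.62% of genes tested), Dcc (0.55) was called and 4 pathway genes were higher. DESeq2 gave 1014 (6.13%), 0.55 and 4 for the same. Slit1 was 0.29 with GC and length trends removed, and Unc5d 0.69 by limma-trend on log2(FPKM + 1), neither called; Slit2 and Unc5c were too low for that fit and Unc5c for the filter at 5 CPM. Without Zfhx3-CKO libraries 1 and 3, Robo1 was -0.17, Robo2 -1.25 (called), Unc5d 0.46 (not called), 1 member was lower, and 2 pathway genes were higher and 6 lower (4.97% and 4.93% of all genes tested). The members' order of level kept 4 of 10 ranks per longest transcript and 10 to 10 with a library left out. With each library left out in turn, genes higher ranged from 156 to 1082 (0.913% to 6.47% of genes tested). Genes lower ranged from 131 to 1014 (0.769% to 6.06%). Beside these shares, pathway genes higher ranged from 0 to 4 and lower from 0 to 7, and members higher from 4 to 5 and lower from 0 to 1. Robo1 ranged from -0.18 (without Zfhx3-CKO library 3) to 0.19, and was -0.03 without control library 3. Robo2 ranged from -0.89 to -0.28 and Unc5d from 0.78 to 1.11. The cause of these changes was not tested. Robo3, Slit3 and Ntn1 were called higher under every alternative that kept more than 1 library per group. These runs reuse the libraries from which Robo3 and Ntn1 were picked, so they add no independent support. Robo3 and Slit3 passed the filter of the log2(FPKM + 1) fit only with their Zfhx3-CKO libraries. Robo3 also needed them for the filter at 5 CPM.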
